A study of Mus musculus with 4 samples.

Results

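FXYD proteins are small membrane proteins that sit beside the sodium pump (Na,K-ATPase) and tune it. Of the FXYD and pump genes, 7 were taken here: Fxyd1, Fxyd2, Fxyd5, Fxyd6 and Fxyd7, and the pump subunits Atp1b1 and Atp1b2. They are 7 of the 22911 genes that could be named on the arrays. They were chosen by the Fxyd7 signal, which was higher in knockout (KO) than in control cerebellum; the others are its relatives and pump subunits. The KO against control difference is therefore given for them as a description, with no test. Every non-control probe with a RefSeq accession of a member gene was used, which gave 8 probes, 2 of them for Atp1b2 and 1 for each other gene. All 8 were well above background on all 4 arrays and passed the filter on dim probes.

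The arrays held total RNA from the cerebellum of C57BL/6 mice at postnatal day 28. The 2 control mice were Derlin-2flox/flox, with loxP sites around part of both Derl2 alleles, and Cre is not listed for them. The 2 KO mice came from crossing such mice to a line in which the nestin promoter drives Cre. That promoter is active in neural precursors, so cells of other origin, such as microglia and endothelium, are not its usual targets. Derlin-2, the protein product of Derl2, sits in the membrane of the endoplasmic reticulum and helps to remove misfolded proteins. The labels do not give sex or litter, nor whether the KO mice carry the floxed allele on both chromosomes.

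The pump moves sodium out of the cell and potassium in, at the cost of ATP. Its alpha subunit is catalytic, and its beta subunit, a glycoprotein, joins alpha in the endoplasmic reticulum and is needed for the pair to fold and reach the cell surface. An FXYD protein binds the finished pair and shifts its affinity for sodium or potassium. In brain the pump restores ion gradients after firing, and neurons and glia use different alpha and beta subunits.

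Values are log2 processed signal less the array's 75th percentile, so 0 is the level that 75% of probes lie below. Probes differ in how brightly they bind, so levels of different genes are not compared. On all arrays 66.4% to 69.4% of spots were well above background and 0 were saturated. A common slide carried all 4 arrays, control mice at positions 1 and 2 and KO mice at 3 and 4, so group and slide place cannot be told apart. The brighter Derl2 probe read 2.13 and 2.20 in control mice and 0.81 and 0.70 in KO mice, so the targeted gene bore out the labels. Purkinje and granule cell markers (Pcp2, Calb1, Gabra6, Zic1) were well above background on every array. Most epithelial markers of the choroid plexus, which lies beside the cerebellum, were far higher on control replicate 2 than on the other arrays. Otx2 was less so, with 1.96 and 2.76 in control and 2.05 and 2.33 in KO. For all 10 kept markers of that tissue this array was the highest of the 4.

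Fxyd7 encodes a brain FXYD protein that lowers the pump's apparent affinity for potassium. Its probe gave processed intensities of 130 and 147 in control mice and 431 and 460 in KO mice. The faintest spots counted as well above background had 10.6 to 15.4 on these arrays. After scaling, the log2 signal was −2.62 and −2.42 in control mice and −0.81 and −0.65 in KO mice. Both KO arrays lay far above both controls, and the smallest of the 4 differences between a KO and a control array was 1.61. The control mean was −2.52 ± 0.137 (SD, n = 2) and the KO mean −0.73 ± 0.115 (SD, n = 2). KO was thus higher by 1.79 on the log2 scale (SE 0.13), which is 3.45-fold. This is the difference for which the gene was picked. Each SE given is limma's moderated error, which also draws on the variance of all kept probes and can differ from the gene's own replicate error. In whole tissue, a change in the number of cells that make a transcript cannot be told apart from a change in the amount per cell.

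Fxyd5 encodes dysadherin, an FXYD protein with a long extracellular part that affects both the pump and cell adhesion. Its log2 signal was −0.72 and −0.54 in control mice and −0.27 and −0.12 in KO mice. The groups did not overlap, and KO was higher by 0.43 (SE 0.13), or 1.35-fold. The group means were −0.63 ± 0.130 (SD, n = 2) and −0.20 ± 0.105 (SD, n = 2). Dysadherin is better known from epithelia and blood cells than from neurons. The 7 microglial and immune markers had a summed scaled signal of 16.8 and 16.2 in control and 13.1 and 15.1 in KO. Of the 7, 4 were lower in KO with separate groups and 0 were higher, where 32.1% of all genes were lower and 13.8% higher in this way. The part of immune cells in the Fxyd5 difference was not tested.

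Fxyd1 encodes phospholemman, the FXYD protein of heart and muscle, which in brain is found in choroid plexus and cerebellar glia. It went the other way. Its log2 signal was 5.13 and 5.28 in control mice and 4.53 and 4.79 in KO mice. The groups did not overlap, and KO differed by −0.54 (SE 0.14), so that control was 1.46-fold higher. The group means were 5.21 ± 0.104 (SD, n = 2) and 4.66 ± 0.185 (SD, n = 2).

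Cell markers were read beside Fxyd1 for the brain sources named above, which may not be all of its sources, and for meningeal fibroblasts. The summed signal of the 12 choroid plexus markers was 7.72 in control replicate 1 and 149 in control replicate 2, against 8.13 in both knockouts. Fxyd1 read 5.13 on the first of these control arrays and 5.28 on the second, and without control replicate 2 its difference was −0.47. For astrocytes and Bergmann glia the summed signal of 8 markers was 235 and 229 in control and 197 and 204 in KO. Their median difference was −0.09, beside −0.06 over all genes. Of the 8 markers, 4 were lower with separate groups, where 32.1% of all genes were, and 0 passed the limma adjusted threshold. The largest part of that sum was S100b, with 6.93 and 6.81 in control and 6.49 and 6.67 in KO, whereas Gfap (2.29 and 2.23, then 2.24 and 2.42) overlapped. The 6 oligodendrocyte markers summed to 341 and 324 in control and 282 and 313 in KO, with a median difference of −0.27. Of these 6, 4 were lower with separate groups and 0 were higher, beside the same 32.1% and 13.8% of all genes. The 5 meningeal fibroblast markers summed to 30.3 and 31.0 in control and 24.3 and 29.1 in KO, with a median difference of −0.35. Of these 5, 2 were lower with separate groups and 0 were higher, where 32.1% of all genes were lower and 13.8% higher in this way. The part of choroid plexus, glial or meningeal RNA in the Fxyd1 difference was not tested.

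**Figure D1:**
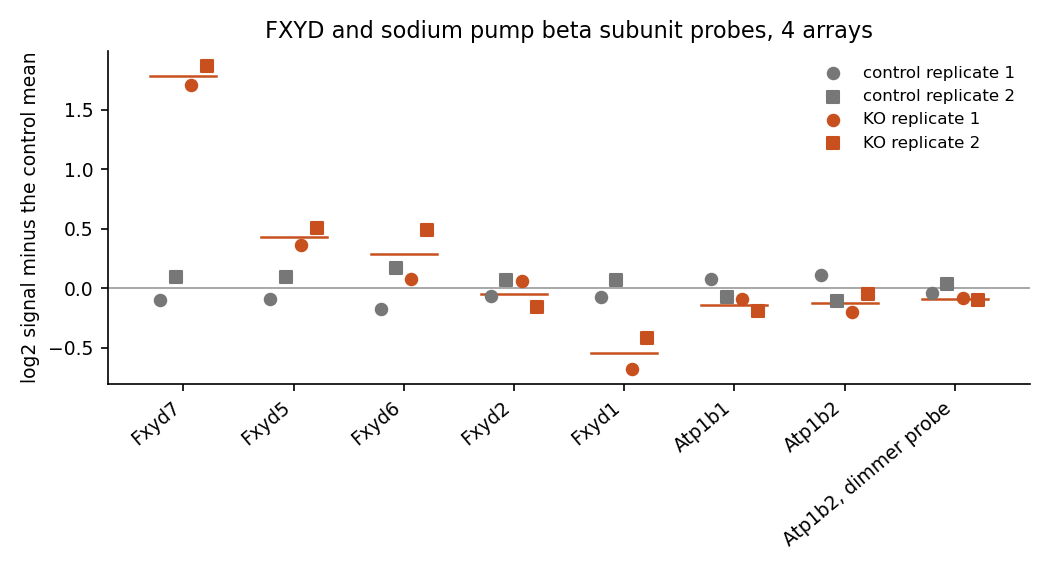
Log2 signal of each member probe on the 4 arrays, with the control mean of that probe set to 0; circles are replicate 1, squares replicate 2, and each orange line is the KO mean (n = 2). Fxyd7 stood 1.79 above control and Fxyd5 0.43 above, Fxyd1 lay 0.54 below, and the pump beta subunits lay within 0.2 of control.

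Fxyd6 and Fxyd2 overlapped between the groups. Fxyd6 encodes phosphohippolin, an FXYD protein of neurons. Its log2 signal was 5.04 and 5.39 in control and 5.29 and 5.71 in KO, a difference of 0.28 (SE 0.21). Its replicates lay 0.35 apart in control and 0.42 apart in KO, and without KO replicate 2 the difference was 0.08. Fxyd2 encodes the gamma subunit, best known from kidney. It read −1.67 and −1.54 in control and −1.55 and −1.76 in KO, a difference of −0.05 (SE 0.13), and was 0.04 when arrays were scaled to spike-in probes.

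The beta subunits of the pump stayed near control. Atp1b1, the beta subunit of neurons and many other cells, had a log2 signal of 6.63 and 6.48 in control and 6.46 and 6.36 in KO. The difference was −0.14 (SE 0.11), and only 0.02 separated the lower control array from the higher KO array. Atp1b2, the glial beta subunit also known as an adhesion molecule, was read by 2 probes. The brighter gave 5.81 and 5.59 in control and 5.50 and 5.65 in KO, which overlap, with a difference of −0.13 (SE 0.13). The dimmer gave 1.23 and 1.31 in control and 1.18 and 1.17 in KO, with a difference of −0.09 (SE 0.10). Both probes differed by the same sign, but the KO minus control difference of the dimmer one was −0.01 under spike-in scaling.

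By the brightest probe of each gene, 4 of the 7 members had groups that did not overlap, 2 higher in KO (Fxyd5 and Fxyd7) and 2 lower (Fxyd1 and Atp1b1). Over all 16524 genes with a kept probe, 45.9% had separate groups, 13.8% higher and 32.1% lower in KO. Of the members, Fxyd7 alone differed at least 2-fold with separate groups, a rule that 1.08% of all genes met. The median difference was −0.05 over the 7 members and −0.09 over the 6 other than Fxyd7, beside −0.06 over all genes. Since the contrast chose the members, nothing is read from these counts.

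Fxyd7 lies in a cluster of FXYD genes on chromosome 7. In the order of the RefSeq gene table, with transcripts that had no named probe passed over, the genes run Fxyd5, Fxyd7, Fxyd1, Lgi4, Fxyd3 and Hpn. Fxyd5 and Fxyd7, both higher in KO, are next to each other, and a short stretch parts them. It is printed because it ends at the start of Fxyd5 and holds the bases between the annotated bounds of the 2 genes. RefSeq places it in GRCm38.p6 at chr7:31042332-31042514, minus strand, 183 bases, and capitals mark its CpG site.

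Fxyd5 upstream stretch: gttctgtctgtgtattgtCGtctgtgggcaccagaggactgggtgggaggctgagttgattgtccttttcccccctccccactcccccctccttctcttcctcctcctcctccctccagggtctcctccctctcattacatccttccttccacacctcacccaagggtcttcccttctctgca

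The stretch held 1 CpG and was 57.9% G and C. Promoter windows of 300 bases, 250 before and 50 after a start, were found for 4 of the 7 members: Atp1b1, Fxyd1, Fxyd5 and Fxyd6. The Atp1b1 window held 31 CpG, that of Fxyd6 12, and those of Fxyd1 and Fxyd5 6 each, beside a median of 7 over 32851 windows. Motifs were searched on both strands. The endoplasmic reticulum stress response element, whose letters include a CCAAT box, had 0 matches in the 4 windows and occurred in 0.119% of all windows. The XBP1 and ATF6 core TGACGTG and the ATF4 composite TGATGNAA likewise had 0 matches, against 2.01% and 3.97% of all windows. The Atp1b1 window held 2 CCAAT boxes (CCAAT) and 2 GC boxes (GGGCGG), found in 37.4% and 35.7% of all windows. The Fxyd6 window held 1 CCAAT box, and that of Fxyd1 held 1 TATA box (TATAAA), found in 13.6% of all windows. Fxyd7 had no window, so its promoter was not searched.

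The neighbours differed in direction gene by gene. Fxyd1, next to Fxyd7 on the other side from Fxyd5, was lower, as given above. Lgi4, which encodes a secreted protein that glia use in myelination, read 3.90 and 3.99 in control and 3.92 on both KO arrays, a difference of −0.03 (SE 0.10; limma adjusted p 0.92). Fxyd3, the next FXYD gene, was dim. It read −5.20 and −4.72 in control and −4.29 and −4.11 in KO, a difference of 0.76 (SE 0.20; limma adjusted p 0.29). Its dimmer probe differed by 1.14 (SE 0.33), but was not well above background on control replicate 1. With normexp background correction, whose offset raises dim signals, the Fxyd3 difference was 0.23.

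Beyond Fxyd3, Hpn encodes hepsin, a serine protease of the cell surface. Hpn read −1.51 and −1.06 in control and −0.51 and 0.17 in KO, a difference of 1.11 (SE 0.29; limma adjusted p 0.289). Both KO arrays were above both controls, though they lay 0.68 apart. Of the neighbours that are not members, Fxyd3 and Hpn were thus higher in KO with separate groups, as were 13.8% of all genes, and Lgi4 overlapped. Fxyd7, Fxyd5 and Fxyd1 are members chosen on this contrast, so they are not counted here. None of the 3 neighbours that were tested passed the adjusted threshold. Beside Fxyd6 on chromosome 9 lies Fxyd2. The probes of the next gene before Fxyd6, Tmprss13, and of the gene after Fxyd2 were well above background on 0 arrays.

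**Figure D2:**
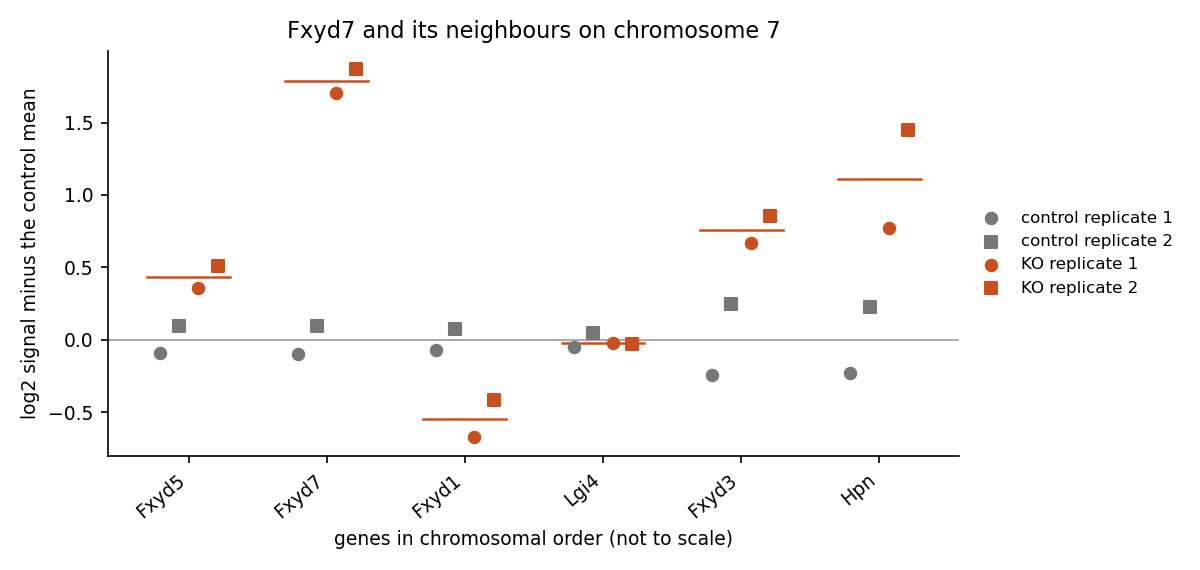
Log2 signal on the 4 arrays for Fxyd7 and its neighbours in chromosomal order, brightest probe of each gene, with each control mean set to 0; grey is control, orange is KO, and the lines are KO means (n = 2). Fxyd5, Fxyd7, Fxyd3 and Hpn were higher in KO, Fxyd1 was lower, and Lgi4 overlapped.

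The other genes of the pump and of the ion transport it powers were taken from 8 lists of 44 genes. Of these, 42 had a named probe and 35 passed the filter. At a limma adjusted p under 0.05, 0 of the 35 were higher and 0 lower. Over all 37516 probes tested, 0% passed in either direction, and 14.0% had an unadjusted p under 0.05. By brightest probe, 3 of the 35 had an unadjusted p under 0.05 (Fxyd3, Sln and Kcnj10), or 8.57%, against 8.81% of all genes. Groups were separate for 12 of the 35 (34.3%, against 45.9% of all genes), 3 higher and 9 lower, and 0 of the 12 differed 2-fold. The median difference was −0.05, beside −0.06 over all genes.

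The beta subunit Atp1b3, found in many tissues, read 2.95 and 2.97 in control and 2.85 and 2.66 in KO, a difference of −0.21 (SE 0.12; limma adjusted p 0.477). Its groups were separate on this probe, and its 2 dimmer probes differed by −0.14 and −0.05. Atp1a4, known from sperm, and Atp1b4, known from muscle, were well above background on 0 arrays. None of the 3 proton-potassium pump genes (Atp4a, Atp4b and Atp12a) passed the filter. Fxyd4, the kidney FXYD protein also known as CHIF, was near background, with −5.28 and −5.17 in control and −6.06 and −4.96 in KO.

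Of the 6 proteins known to bind the pump, all had a KO mean below the control mean, as did 25 of the 35 related genes. The median difference over all genes was itself negative, at −0.06. Groups were separate for 4 of the 6, where 32.1% of all genes were lower with separate groups, and 0 passed the limma adjusted threshold. Nkain2, a pump-interacting membrane protein of neurons, read 0.06 and −0.23 in control and −0.61 and −0.37 in KO, a difference of −0.41 (SE 0.16; limma adjusted p 0.369). Its dimmer probe differed by −0.41 as well. Mlc1, a membrane protein of astrocytes that binds the beta subunit, differed by −0.19 (SE 0.10), Nkain3 by −0.20 (SE 0.13) and Nkain4 by −0.05 (SE 0.10). Nkain1 and Agrn differed by −0.03 and −0.01. Of the 6, Agrn and Nkain1 had overlapping groups, and Agrn, Nkain1 and Nkain4 changed sign under some alternative.

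Other small membrane regulators were set beside the FXYD genes. Sln encodes sarcolipin, a small inhibitor of the calcium pump of the endoplasmic reticulum. It read 0.50 and 0.59 in control and 0.90 and 1.07 in KO, a difference of 0.44 (SE 0.12; limma adjusted p 0.289). Pln, its relative phospholamban, was well above background on 0 arrays. Kcne2, a potassium channel subunit of choroid plexus, read −5.22 and 2.10 in control and −4.42 and −6.69 in KO. Control replicate 2 was thus far higher than the other arrays, as for most choroid plexus markers.

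Among transporters and channels that depend on the pump, Kcnj10 had the smallest unadjusted p. It encodes the glial potassium channel Kir4.1, which clears potassium that neurons release. It read 4.97 and 4.98 in control and 4.55 and 4.72 in KO, a difference of −0.34 (SE 0.11; limma adjusted p 0.334). The glial glutamate transporters Slc1a2 and Slc1a3 differed by −0.15 (SE 0.12) and −0.18 (SE 0.11), both with separate groups. The 12 transporters driven by the sodium gradient had a median of −0.05, and the range ran from −0.27 for Slc6a11 to 0.37 for Slc8a1. Of the 2 dimmer Slc8a1 probes, 1 differed by −0.20 with overlapping groups and 1 by 0.47 with separate groups. The neuronal chloride exporter Slc12a5 differed by −0.05 (SE 0.11). The calcium pumps Atp2b1 to Atp2b4 had a median of 0.02, and Atp2b4 alone had separate groups, with a difference of 0.25 (SE 0.14).

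**Figure D3:**
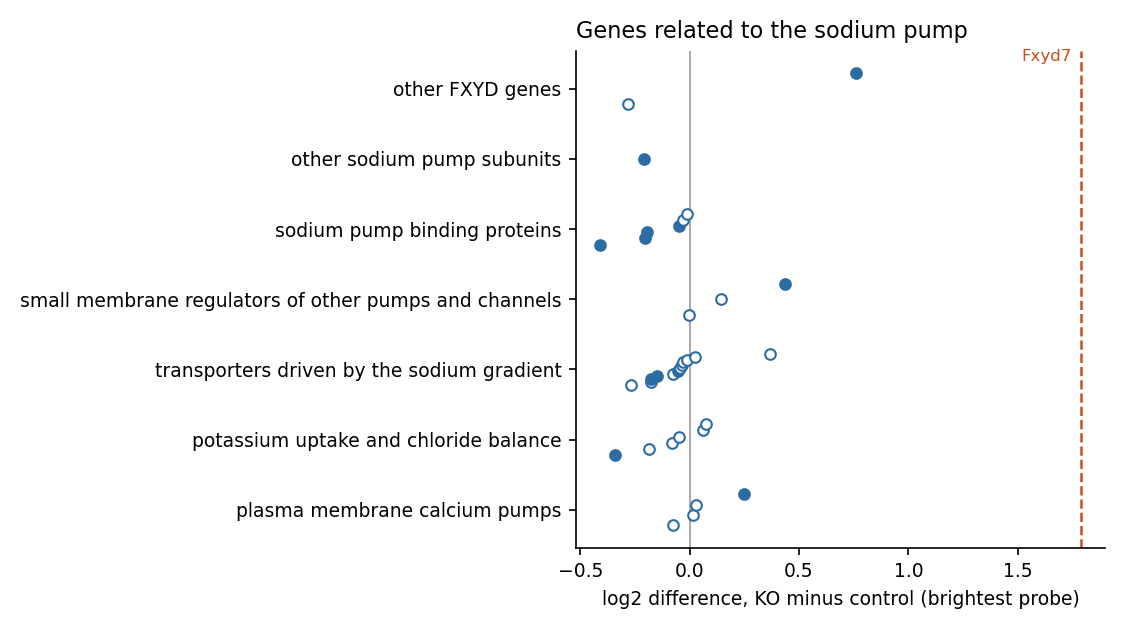
Log2 difference between KO and control means for genes of 7 related lists, brightest probe of each gene that passed the filter; filled points have separate groups, open points overlap, and the dashed line marks Fxyd7 at 1.79. Kcne2, at −4.00, is not drawn, and the other points lie between −0.41 and 0.76.

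Likeness to Fxyd7 was measured as the root mean square difference between 4-array profiles, each centred on its mean, over the 16058 other genes well above background on all arrays. The nearest was Derl3 (0.24 log2 units), a paralogue of Derl2. It read −2.09 and −1.60 in control and −0.23 and −0.49 in KO. Next were 4932411N23Rik (0.35), Mndal (0.35), Mgst2 (0.36) and Tbx6 (0.36). Mndal belongs to an interferon-inducible family, Mgst2 is a microsomal glutathione transferase and Tbx6 is a transcription factor. All 5 were higher in KO on both arrays, by 1.48, 1.19, 1.71, 1.13 and 1.26 in that order, which follows from how they were found. No other member or FXYD gene was among them.

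The member values were also read under other processing choices. Over the 15 alternatives, Fxyd7 was higher in KO in all, from 1.44 with normexp background correction to 1.88 without control replicate 2. Not all of them could have changed this. A change of filter, variance model or block cannot move a difference of means here, and leaving out an array cannot reverse separate groups. Fxyd5 stayed between 0.32 and 0.53, and Fxyd1 between −0.68 and −0.41. Atp1b1 ran from −0.25 to −0.06 and Atp1b2 from −0.23 to −0.02. Fxyd2 changed sign in 3 of the 15.

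**Figure D4:**
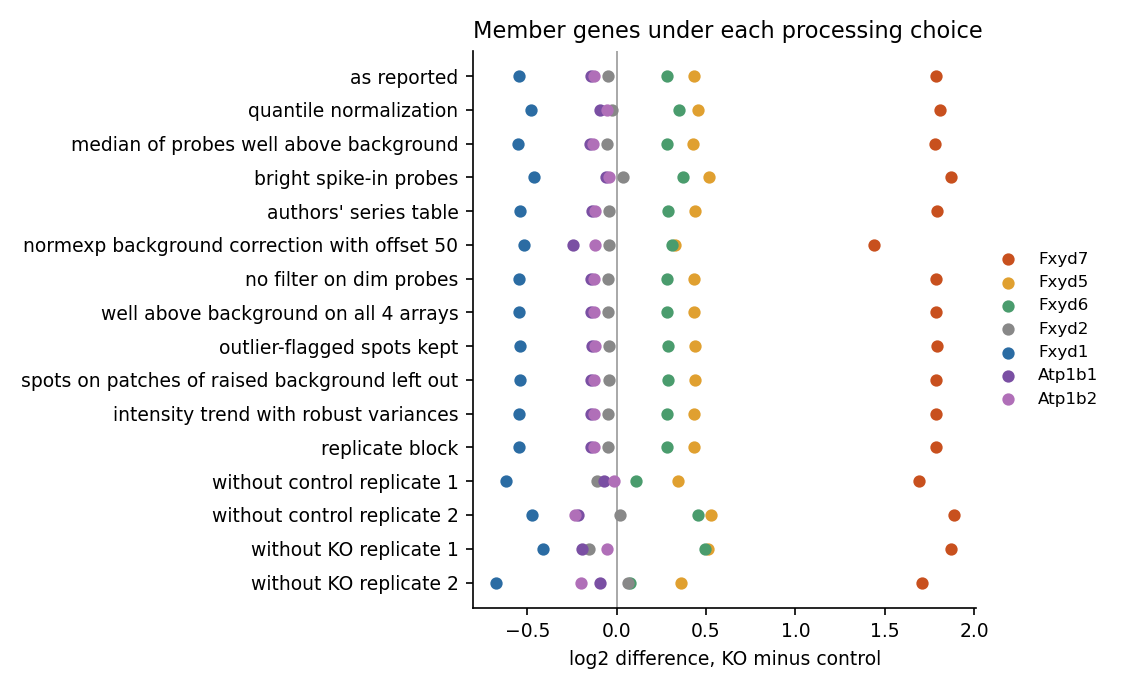
Log2 difference between KO and control for the 7 member genes (brightest probe) as reported and under each of 15 other processing choices, named on the left. Fxyd7 stayed between 1.44 and 1.88, Fxyd5 and Fxyd1 kept to opposite sides of 0, and Fxyd2 crossed it.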

How the data were processed

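Per the labels' protocols, Cy3-labelled RNA was made from 150 ng of total RNA of each cerebellum and hybridised to Agilent arrays. Per the headers of the deposited scanner files, their intensity values come from Agilent's Feature Extraction software, version 12.1.1.1 (10.7.1.1 in the submitters' processing notes), background subtracted and detrended within the array, with 0 or 1 flags (unit other) per spot. The authors' series table holds log2 values, with centring per probe not stated. Spots of 1 probe were averaged as log2 intensities, outlier spots left out, less the 75th percentile of that array. Probes well above background on both arrays of a group were kept, 37516 of 56605. Of 35886 probes with a RefSeq accession, 91.9% were named through RefSeq's GRCm38.p6 table. KO and control were compared with limma 3.58.1 (R 4.3.3; lmFit, eBayes, no covariates, Benjamini-Hochberg over all kept probes). The script was tested on simulated data.

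The labels give separate samples, not how mice were chosen. The p-values therefore set each difference against the spread between these samples, moderated by the variance over all kept probes. The number of arrays limits the precision. Members and lists were chosen with earlier results of these data known. Genes named are the members and the listed genes with separate groups or a stated role in the pump. Others are the 5 nearest profiles and genes from 4 places on either side of Fxyd7 and 2 of Fxyd6. Slc6a11, Slc8a1, Slc12a5, Kcne2 and Pln were chosen after their values were seen. Some related genes and neighbours are not reported here, and the counts leave them out.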

Additional observations from a re-analysis of the deposited data

How the results depend on the processing

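With all arrays kept, the number of probes that passed the adjusted threshold, 0 as reported, was 1 under quantile normalization, scaling to the median of probes well above background, scaling to 6 bright spike-in probes, and omission of spots on patches of raised background; it was 2 under normexp and 4 under an intensity trend with robust variances. Leaving out an array gave 0 to 98, the highest without control replicate 2; the remaining array of that group is taken to vary as much as the other group. None of the related genes passed under any of these, and Fxyd7 moved by more than its replicate spread under normexp alone, to 1.44. Without an array it ran from 1.69 to 1.88, and the median of the other members stayed within their spread. With the replicate number used as a block, 0 probes passed the threshold. The design is balanced, so this block cannot move the Fxyd7 difference of 1.79. The labels do not say that numbers pair mice, and deviations of same-numbered arrays correlated at 0.14. Atp1b1 went to −0.25 under normexp, and the dimmer Atp1b2 probe to −0.04 under quantile normalization. The largest shift of the median over all probes from any scaling was 0.085, with the spike-in probes. Dim probes such as those of Fxyd3 and Fxyd4 lie close to the faintest signal counted as above background.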
